A study of Mus musculus with 18 samples.

Results

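Expression of 8 genes that mark the GABAergic neurons of the substantia nigra was followed in mice that had or had not received an adeno-associated virus (AAV), a viral vector that carries a gene into cells. The genes are Gad1, Gad2, Slc32a1, Pvalb, Gata3, Tal1, Pax5 and Six3, a list of names of known markers of these neurons, and they are 8 of the 55270 genes in the table. All 8 were among the 19443 genes abundant enough to be tested. Bulk substantia nigra from 18 mice was sequenced, 6 mice in each of 3 groups, at 3 months of age and about a month after the virus. The intact group was labelled wild type with no virus named, the AAV-GFP group overexpressed green fluorescent protein, and the AAV-SIRT3 group overexpressed SIRT3, a deacetylase of the mitochondrial matrix. The AAV-GFP group is therefore the control that shares the virus with AAV-SIRT3. Intact tissue differs from both in the virus, in its cargo and in whatever was done to deliver it, and these cannot be told apart. The promoter of the vector, the cells it entered, and the strain and sex of the mice are not given in the sources used here. Values are normalised reads, that is, reads per gene divided by a size factor for each library.

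The substantia nigra holds dopaminergic neurons in its compact part and mostly GABAergic projection neurons in its reticular part, which fire fast and tonically and form one of the main outputs of the basal ganglia. GABA is made from glutamate by the decarboxylases GAD67 (Gad1) and GAD65 (Gad2) and is packed into synaptic vesicles by the transporter VGAT (Slc32a1). Parvalbumin (Pvalb) is a calcium buffer of fast-firing neurons. The zinc finger factor Gata3 and the basic helix-loop-helix factor Tal1 direct midbrain precursors to a GABAergic fate, and the paired-box factor Pax5 and the homeobox factor Six3 mark separate populations of nigral GABAergic neurons. In whole tissue, fewer cells of a type and less RNA per cell cannot be told apart. The genes are not confined to nigral neurons, and Gad1, Gad2 and Slc32a1 serve GABAergic neurons in general. Tal1 is also a gene of endothelial and blood-forming cells, Gata3 of T cells, Pax5 of B cells and Pvalb of muscle. Six3 is also a gene of striatal and thalamic reticular neurons and of the pituitary. The share of such cells in the values was not tested.

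The genes lie on 4 chromosomes of GRCm38 (mm10), by GENCODE M21. Gad1 (chr2:70553072-70602014, plus strand), Gad2 (chr2:22622205-22693874, plus), Slc32a1 (chr2:158610767-158615748, plus) and Gata3 (chr2:9857078-9890034, minus) share chromosome 2. Tal1 (chr4:115056426-115071755, plus) and Pax5 (chr4:44524757-44710487, minus) lie on chromosome 4, Pvalb on chromosome 15 (chr15:78191114-78206400, minus) and Six3 on chromosome 17 (chr17:85613608-85629302, plus). All are protein-coding genes, and their values are per gene, not per exon or transcript. Exons of the opposite-strand transcript Six3os1, listed at 296 to 849 normalised reads, overlap those of Six3, and those of Gm12462 (16.0 to 77.8) overlap Pax5. The strand setting of the counting is not given in the sources used here, and the overlapping pairs may not be fully separated.

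Promoters of 6 of the genes are shown because Pvalb and Pax5 were the members that differed between groups, and Gad1, Six3, Gata3 and Tal1 were among those that varied together or in opposite directions between mice. Each sequence runs 5′ to 3′ on the strand of its gene, from 250 bases before to 50 after a start site of RefSeq (GRCm38.p6), and each match to GATA, or to TATC on the other strand, the core letters bound by GATA factors, is in capitals. RefSeq lists 2 starts for Pvalb and for Tal1, and the outermost one is shown.
Pvalb promoter (chr15:78206351-78206650, minus strand): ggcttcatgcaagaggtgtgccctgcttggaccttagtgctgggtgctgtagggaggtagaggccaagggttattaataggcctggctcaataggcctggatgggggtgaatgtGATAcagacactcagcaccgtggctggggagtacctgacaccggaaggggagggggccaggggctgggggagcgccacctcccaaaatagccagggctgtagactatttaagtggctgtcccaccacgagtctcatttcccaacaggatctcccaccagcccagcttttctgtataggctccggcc
Pax5 promoter (chr4:44710645-44710944, minus strand): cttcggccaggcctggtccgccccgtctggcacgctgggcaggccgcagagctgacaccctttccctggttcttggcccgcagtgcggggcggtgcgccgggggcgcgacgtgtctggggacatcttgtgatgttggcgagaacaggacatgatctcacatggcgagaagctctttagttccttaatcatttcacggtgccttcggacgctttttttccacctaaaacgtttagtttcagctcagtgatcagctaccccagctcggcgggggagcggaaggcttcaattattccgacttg
Gad1 promoter (chr2:70561879-70562178, plus strand): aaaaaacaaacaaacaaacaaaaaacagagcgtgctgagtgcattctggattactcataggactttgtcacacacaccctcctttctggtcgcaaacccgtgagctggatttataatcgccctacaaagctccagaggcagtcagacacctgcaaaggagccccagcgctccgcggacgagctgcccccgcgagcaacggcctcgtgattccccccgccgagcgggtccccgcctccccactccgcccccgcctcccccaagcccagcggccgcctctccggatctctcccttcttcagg
Six3 promoter (chr17:85620584-85620883, plus strand): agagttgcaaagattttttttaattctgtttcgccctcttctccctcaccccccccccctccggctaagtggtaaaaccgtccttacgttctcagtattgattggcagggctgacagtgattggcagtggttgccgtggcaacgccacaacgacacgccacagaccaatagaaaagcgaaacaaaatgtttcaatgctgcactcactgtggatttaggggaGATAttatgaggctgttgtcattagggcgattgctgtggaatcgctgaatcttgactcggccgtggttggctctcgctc
Gata3 promoter (chr2:9878551-9878850, minus strand): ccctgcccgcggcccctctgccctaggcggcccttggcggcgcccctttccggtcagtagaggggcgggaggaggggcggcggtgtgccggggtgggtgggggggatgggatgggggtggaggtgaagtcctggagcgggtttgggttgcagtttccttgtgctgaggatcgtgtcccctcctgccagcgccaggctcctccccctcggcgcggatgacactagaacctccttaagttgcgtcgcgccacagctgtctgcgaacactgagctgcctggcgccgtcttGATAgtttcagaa
Tal1 promoter (chr4:115056176-115056475, plus strand): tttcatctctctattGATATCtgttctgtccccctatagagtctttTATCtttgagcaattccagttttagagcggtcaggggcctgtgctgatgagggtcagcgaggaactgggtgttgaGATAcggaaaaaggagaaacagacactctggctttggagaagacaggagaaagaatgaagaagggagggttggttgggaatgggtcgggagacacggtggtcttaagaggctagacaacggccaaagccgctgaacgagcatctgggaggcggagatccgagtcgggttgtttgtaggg
Tal1 held 4 matches, of which a pair shares letters in GATATC, while Pvalb, Gata3 and Six3 held 1 each and Gad1 and Pax5 held 0. Slc32a1 held 2 and Gad2 held 0, so that 5 of the 8 genes had a match in a listed promoter. Such letters are common: 57.9% of all 32851 promoters of this length had at least 1. The E-box letters CANNTG, the core bound by factors such as Tal1, which read the same on both strands and can share a letter with TATC, were present for 7 of the 8 genes and in 72.3% of all promoters. The percentages count promoters, while a gene with 2 listed starts was counted once if either held a match. The 2 kinds of count are therefore not directly comparable. A match is only a description of the letters in the window.

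All 8 genes were expressed in each of the 18 libraries, from 105 normalised reads (Pax5 in an AAV-GFP library) to 30572 (Gad1 in an AAV-SIRT3 library). Depth ran from 47182529 to 64728587 reads in genes, and these reads carry no molecular identifiers. Sirt3, the gene delivered, ranged from 1733 to 1920 normalised reads in intact libraries, 1684 to 1936 with AAV-GFP and 1801 to 2041 with AAV-SIRT3, a difference from AAV-GFP of 0.13 on the log2 scale (adjusted p = 0.183, limma), and the 3 groups overlapped. From which species the SIRT3 cargo came is not given in the sources used here. The 10 markers of dopaminergic neurons, the neurons for which the nigra is best known, summed to 36071 normalised reads or more in each library. The intact libraries differed among themselves in tissue make-up. The summed level of 9 thalamic markers ran from 34397 to 82848 in intact tissue, 67457 to 78184 with AAV-GFP and 62564 to 87798 with AAV-SIRT3, and their mean log2 value was lowest in intact replicates 1, 3 and 5 (11.1, 11.3 and 11.4 against 12.1 to 12.7 in the other libraries). Intact replicate 1 stood highest in its group for Gata3, Tal1 and Pax5, and results that rest on it are given with and without it.

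**Figure D1:**
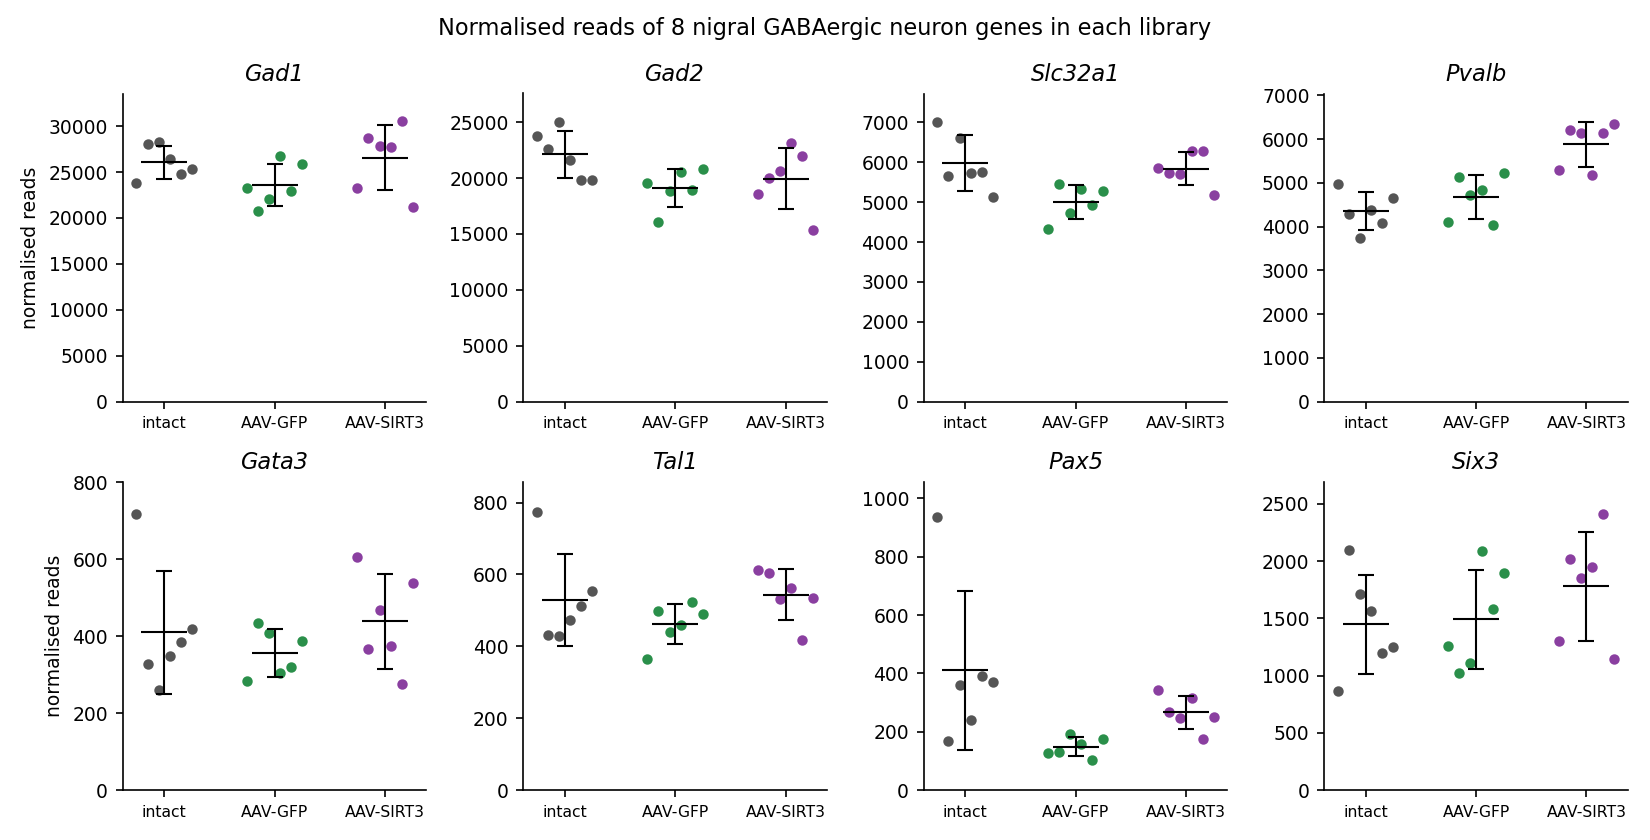
Normalised reads of the 8 genes in each of the 18 libraries; each point is a mouse, the horizontal line is the group mean and the bar is the SD (n = 6), and each vertical axis starts at 0. Pvalb in AAV-SIRT3 lies above all intact libraries, Pax5 is low in AAV-GFP, and intact replicate 1 is the leftmost point of its group, the highest for Gata3, Tal1 and Pax5.

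Per kilobase of exon, which allows levels to be compared between genes, the enzymes, the transporter and parvalbumin were far above the transcription factors. In intact tissue the mean level per kilobase was 4185 ± 415 normalised reads for Pvalb, 3763 ± 359 for Gad2, 3414 ± 236 for Gad1 and 2137 ± 248 for Slc32a1 (SD, n = 6). The libraries of Pvalb, Gad2 and Gad1 overlapped with those of their neighbour in this order, and Slc32a1 lay below all of them. Six3 followed at 266 ± 79.6, Tal1 at 121 ± 29.5, Gata3 at 103 ± 40.3 and Pax5 at 46.4 ± 30.7. Six3 in its lowest library (159) was below the highest library of Tal1 (177) and of Gata3 (180), and Tal1, Gata3 and Pax5 also overlapped. The order at the top depends on the length used: with the longest transcript in place of all exons, Gad1 came first at 7242 ± 500 and Pvalb second at 4459 ± 442. In AAV-SIRT3 libraries Pvalb stood at 5650 ± 488 per kilobase of exon and did not overlap with any other member. With the longest transcript, Gad1 was first there too, at 7371 ± 986, and overlapped with Pvalb at 6020 ± 520.

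Variation between mice of a group was small for the genes of GABA synthesis and large for some of the factors. Within groups the coefficient of variation was 6.90% to 13.4% for Gad1, 8.94% to 13.7% for Gad2, 7.14% to 11.6% for Slc32a1 and 8.63% to 10.8% for Pvalb. For Six3 it was 26.7% to 29.97% in each group, while for Pax5 it was 66.1% in intact and 21.7% to 22.3% in the groups that received virus. The intact figure for Pax5 includes replicate 1, at 936 normalised reads with the next library at 390.

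The first contrast, AAV-SIRT3 minus AAV-GFP, asks what SIRT3 overexpression adds to the virus. None of the 8 genes passed the test, limma's moderated test on log2(value + 1) with Benjamini-Hochberg adjustment over all 19443 genes at 0.05. The background was 0.113% of all genes called (22 genes), 0.036% higher and 0.0771% lower, and groups without overlap, also found for 0 members, occurred in 0.751% of all genes. All 8 fitted fold changes were above 0, with a median of 0.25 on the log2 scale against -0.0041 over all genes. At an unadjusted p under 0.05 stood 4 of the 8 (Gad1, Slc32a1, Pvalb and Pax5), as did 2964 of all genes. By edgeR 0 of the 8 were called, beside 0.123% of all genes. DESeq2 called 1, Pvalb, beside 1.99% of the 15665 genes to which it gave an adjusted p. The member nearest to the threshold was Pvalb. Its values ran from 4032 to 5221 (median 4777) in AAV-GFP and from 5180 to 6352 (median 6130) in AAV-SIRT3. Only the highest AAV-GFP and the lowest AAV-SIRT3 library crossed, so that AAV-SIRT3 was higher in 35 of the 36 pairs of libraries. The difference was 0.33 (SE 0.0735, adjusted p = 0.0708, limma), and it passed the threshold without AAV-GFP replicate 2 (adjusted p = 0.0167) or 6 (adjusted p = 0.0464) and with DESeq2 on the recovered reads (adjusted p = 0.00432), with a range of 0.00432 to 0.191 over 33 alternatives.

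Pax5 differed more in size but with a larger error. It ran from 105 to 194 normalised reads (median 145) in AAV-GFP and from 176 to 342 (median 258) in AAV-SIRT3, a log2 difference of 0.84 (SE 0.272, adjusted p = 0.175, limma). With the pan-neuronal score, the mean log2 value of 10 genes of all neurons, as a covariate it was 0.51 (adjusted p = 0.187). A single pair of libraries crossed, the highest AAV-GFP and the lowest AAV-SIRT3, and 35 of 36 pairs had AAV-SIRT3 higher. Slc32a1 was at 4325 to 5453 (median 5107) in AAV-GFP and 5174 to 6291 (median 5789) in AAV-SIRT3, with 33 of 36 pairs higher and a log2 difference of 0.22 (SE 0.0691, adjusted p = 0.154, limma). Without AAV-GFP replicate 2, which alone raised the number of genes called in the whole table from 22 to 862, Slc32a1 was 0.25 and passed (adjusted p = 0.0496). The decarboxylases and the other factors overlapped widely between these groups. Gad1 was 0.16 (SE 0.0773), Gad2 0.053 (SE 0.0823), Gata3 0.27 (SE 0.198), Tal1 0.23 (SE 0.124) and Six3 0.26 (SE 0.207) on the log2 scale, with adjusted p-values from 0.321 to 0.805 (limma). With the pan-neuronal score as a covariate Gata3 was 0.050, Tal1 0.096 and Six3 0.41 (adjusted p from 0.320 to 0.895, limma).

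Markers of other cells also moved between AAV-SIRT3 and AAV-GFP, with 0 called by limma. Over all genes DESeq2 called 1.99% in this comparison, against 0.113% by limma. Those of dopaminergic neurons were above 0 for 9 of 10 genes, with a median log2 difference of 0.20, 4 at an unadjusted p under 0.05 and 2 called by DESeq2. Their summed level was 36071 to 46803 in AAV-GFP and 41786 to 49292 in AAV-SIRT3. Endothelial markers were above 0 for only 1 of 8 genes, with a median of -0.35, 6 at an unadjusted p under 0.05 and 1 called by DESeq2, and summed to 7392 to 9758 and 5936 to 8930. The summed level of 5 astrocyte markers was 72423 to 96209 in AAV-GFP and 66127 to 70012 in AAV-SIRT3, without overlap, with a median log2 difference of -0.046 and 2 genes called by DESeq2. Of 5 microglial markers 1 was called by DESeq2, and edgeR called 0 in each of these lists. Their part in the differences of the 8 genes was not tested.

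The contrast of AAV-GFP with intact tissue takes the virus, its delivery and its control cargo together. Of the 8 genes 1 was called, Pax5, which fell, and the background was 1.02% of genes called lower, 0.823% called higher and 1.84% in either direction (358 genes). The groups overlapped for all 8 members, and for all but 1.86% of the genes tested. In intact libraries Pax5 ran from 167 to 936 normalised reads with a median of 366. In AAV-GFP it ran from 105 to 194 with a median of 145. The intact group was both higher and wider, and its lowest library, replicate 2, lay inside the range of AAV-GFP. Pax5 was lower in AAV-GFP in 34 of 36 pairs, with means of 411 ± 272 and 149 ± 33.1 (SD, n = 6) and a log2 difference of -1.28 (SE 0.272, adjusted p = 0.0206, limma). Without intact replicate 1 the difference was -0.997 (adjusted p = 0.0233), and without AAV-GFP replicate 5, the lowest library of its group, the call was lost at -1.18 (adjusted p = 0.0508). Its adjusted p lay between 0.000912 and 0.347 over the 33 alternatives.

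Thalamic markers moved in the direction opposite to that of Pax5. In AAV-GFP against intact all 9 thalamic fold changes were above 0, with a median of 0.72, and 2 passed the test. Intact replicates 1, 3 and 5, lowest in the thalamus score, held 936, 360 and 390 normalised reads of Pax5, and intact replicate 2, with the highest score of its group (12.5), held the lowest intact value (167). Intact replicate 6 did not follow this order, with a score of 12.3 and a Pax5 value of 372. Dopaminergic markers moved in the same direction as Pax5. In AAV-GFP against intact 1 of their 10 fold changes was above 0, with a median of -0.28, and 1 was called lower (1.02% of all genes). Their mean log2 value was the highest of the 18 libraries in intact replicates 1, 3 and 5 (11.05, 10.95 and 10.95). It was not used as a covariate, and its part in the Pax5 result was not tested. In AAV-SIRT3 against intact the thalamic median was 0.65, close to that in AAV-GFP, while Pax5 was -0.44 and did not pass (adjusted p = 0.261, limma). With the thalamus score as a covariate, the Pax5 difference was -0.64 and did not pass (adjusted p = 0.347, limma). The score itself differs between these groups, so its part and that of the virus cannot be fully told apart. Of the 6 pituitary hormone genes tested, 4 were also lower in AAV-GFP, and their part in the result was not tested. Pax5 is also a factor of B cells, whose list had 0 of 3 tested genes called (1 at an unadjusted p under 0.05, limma, and 0 called by edgeR or DESeq2) and whose defining gene Ms4a1 was at most 7.30 normalised reads in any library. The summed level of the B-cell list was 738 to 1886 in intact tissue, 552 to 985 with AAV-GFP and 678 to 1484 with AAV-SIRT3, of which Ighm made up nearly all.

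**Figure D2:**
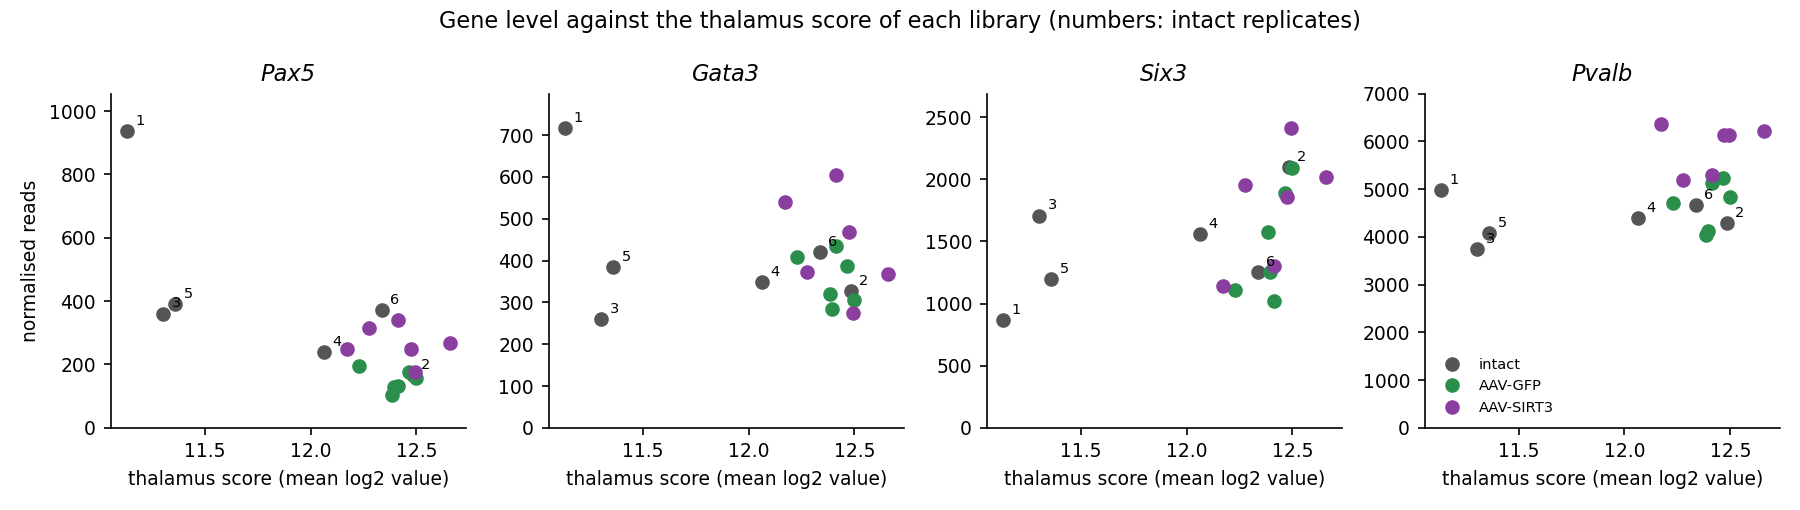
Normalised reads of Pax5, Gata3, Six3 and Pvalb (vertical axes from 0) against the thalamus score, the mean log2 value of 9 thalamic markers, in each library; numbers mark the intact replicates. Intact replicates 1, 3 and 5 stand apart at scores of 11.1 to 11.4, and replicate 1 has the highest Pax5 and Gata3 and the lowest Six3. The AAV-SIRT3 libraries are high in Pvalb. Their scores run from 12.17 to 12.66, and those of AAV-GFP from 12.23 to 12.50.

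The genes of GABA synthesis and release were slightly lower in AAV-GFP than in intact tissue without passing the test. For Slc32a1, intact libraries ran from 5127 to 7014 (median 5738) and AAV-GFP libraries from 4325 to 5453 (median 5107). The groups overlapped at their edges, and AAV-GFP was lower in 33 of 36 pairs. Its log2 difference was -0.25 (SE 0.0691, adjusted p = 0.0586, limma), which passed with DESeq2 (adjusted p = 0.0139), array weights (adjusted p = 0.0403), length and GC trends removed (adjusted p = 0.0395), without intact replicate 6 (adjusted p = 0.0266) and without AAV-SIRT3 replicate 6 (adjusted p = 0.0471), over a range of 0.0139 to 0.483. With the thalamus score as a covariate it was -0.15 (adjusted p = 0.483, limma). Gad2 was at 19788 to 25042 in intact and 16078 to 20838 in AAV-GFP libraries (-0.21, SE 0.0823, adjusted p = 0.171), and Gad1 at 23797 to 28261 and 20736 to 26789 (-0.15, SE 0.0773, adjusted p = 0.312, both limma). Pvalb did not share this direction, at 0.10 (SE 0.0735, adjusted p = 0.483, limma). Gata3 at -0.14 (SE 0.198) and Six3 at 0.048 (SE 0.207) changed sign when intact replicate 1 was left out (0.035 and -0.088). Tal1 was -0.17 (SE 0.124), and -0.055 without that library.

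Pvalb was higher in AAV-SIRT3 than in intact tissue in each pair of libraries. Intact libraries ran from 3744 to 4979 normalised reads with a median of 4336, and AAV-SIRT3 libraries from 5180 to 6352 with a median of 6130. The groups did not overlap, as in 9.33% of all genes in this comparison. The means were 4356 ± 432 and 5882 ± 508 (SD, n = 6), a log2 difference of 0.43 (SE 0.0735, adjusted p = 0.000837, limma) or 35.1% more. It passed in all 33 alternatives, with differences from 0.39 to 0.47 and adjusted p-values from 1.45e-06 to 0.0168. With the thalamus score as a covariate it was 0.40 (adjusted p = 0.0168), with the pan-neuronal score 0.40 (adjusted p = 0.00102), and with trends in transcript length and GC content removed 0.45 (adjusted p = 0.000341, all limma). Pvalb was the single member called, against a background of 11.3% of genes called higher, 10.3% lower and 21.7% in either direction (4214 genes), so 1 of 8 is a share near that of all genes.

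The other 7 members did not pass in that comparison, and their median with Pvalb included was 0.039 (5 of 8 above 0). Gad1 was 0.017 (SE 0.0773), with 21205 to 30572 normalised reads in AAV-SIRT3, the widest range of its 3 groups, and Slc32a1 was -0.030 (SE 0.0691), both with signs that changed in some alternatives. For Gad2 the difference was -0.16 (SE 0.0823, adjusted p = 0.187, limma), with 15400 to 23124 in AAV-SIRT3. Among the factors, Gata3 was 0.12 (SE 0.198), Tal1 0.061 (SE 0.124) and Six3 0.31 (SE 0.207). Without intact replicate 1 these were 0.30, 0.18 and 0.17, and none passed (adjusted p from 0.217 to 0.580, limma). Pax5 was -0.44 (SE 0.272, adjusted p = 0.261, limma), and only -0.16 without intact replicate 1. The sign of Pax5 turned to 0.21 with the thalamus score as a covariate, while with the pan-neuronal score it was -0.68 and passed (adjusted p = 0.00791). The 3 comparisons share groups, so their values are set side by side and not counted as separate support.

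**Figure D3:**
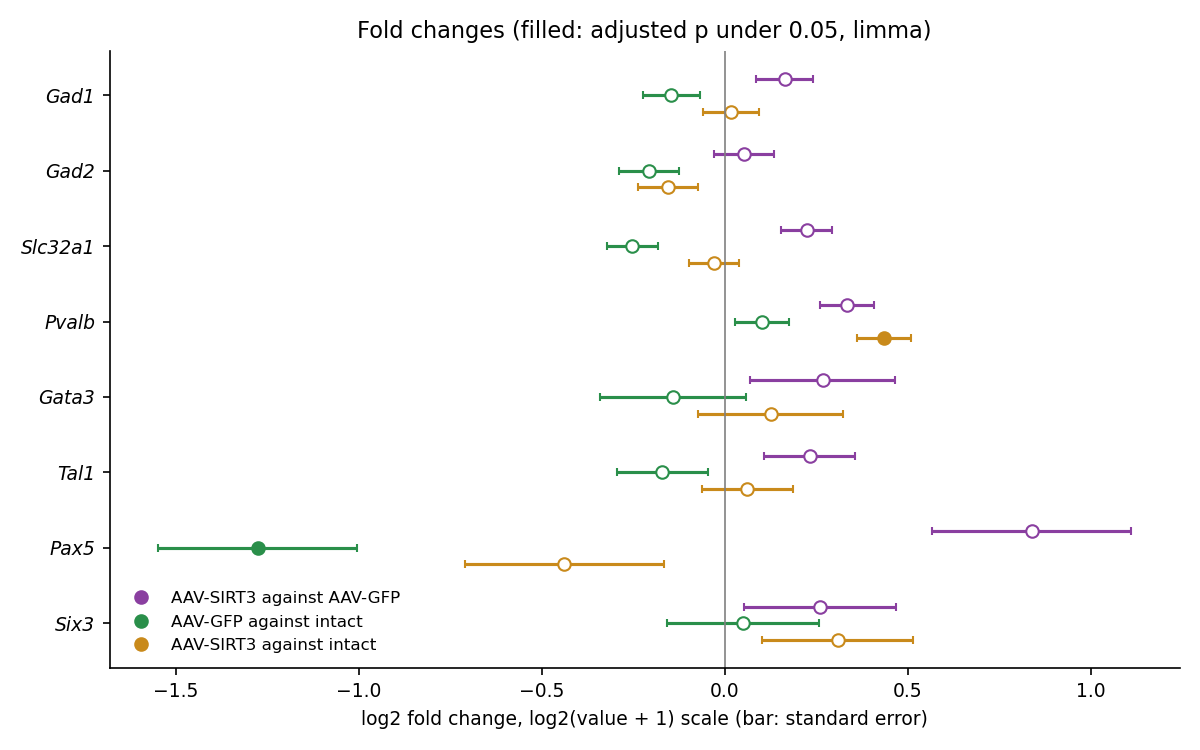
Log2 fold changes of the 8 genes with their standard errors (horizontal axis) in the 3 comparisons, one colour each; filled points have an adjusted p under 0.05 (limma). Pax5 in AAV-GFP against intact (-1.28) and Pvalb in AAV-SIRT3 against intact (0.43) are the filled points, and all 8 points of AAV-SIRT3 against AAV-GFP lie above 0.

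The 8 genes did not vary as 1 block between mice. With group means removed, 8 of the 28 pairs of genes were correlated over the 18 libraries at an adjusted p under 0.05 (permutation test within groups, 100000 resamples, two-sided, adjusted over the 28 pairs), 6 positively and 2 negatively. By rank 6 of the pairs passed. Gad1 and Six3 varied most closely together, with r = 0.92 and rho = 0.93 (p = 1e-05, the smallest that these permutations can give, adjusted p = 0.00028 for each). The relation held within intact (r = 0.95), AAV-GFP (0.95) and AAV-SIRT3 (0.99), and r was 0.92 without the 2 libraries farthest in Gad1, AAV-SIRT3 replicates 5 and 6. AAV-SIRT3 replicate 5 had the most Gad1 (30572) and Six3 (2414), and intact replicate 1 the least Six3 (866).

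Gata3 ran opposite to this pair. Its correlation with Six3 was r = -0.78 and rho = -0.79 (permutation adjusted p = 0.00448 and 0.00607), and with Gad1 r = -0.72 and rho = -0.76 (permutation adjusted p = 0.00448 and 0.00607). Within groups, Gata3 against Six3 gave -0.87 among intact libraries, -0.46 with AAV-GFP and -0.91 with AAV-SIRT3, and both relations stayed at r = -0.68 without the 2 libraries farthest on the first gene. Gata3 and Tal1 varied together at r = 0.79 and rho = 0.62 (permutation adjusted p = 0.00554 and 0.0478), or 0.63 without intact replicate 1 and AAV-SIRT3 replicate 1. Gad1 and Gad2 did so at r = 0.80 and rho = 0.76 (permutation adjusted p = 0.00448 and 0.007), with 0.43 within intact against 0.90 and 0.89 in the other groups. Gad2 and Six3 (r = 0.63, rho = 0.65, permutation adjusted p = 0.032 and 0.0412) passed in 13 of 18 fits that left out a library and fell to r = 0.46 without AAV-GFP replicate 2 and AAV-SIRT3 replicate 6.

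Both correlations of Pax5 that passed were lost in several fits that left out a library, and most of all without intact replicate 1. Pax5 gave r = 0.71 with Tal1 and 0.67 with Gata3 (permutation adjusted p = 0.0351 and 0.0464), and rho = 0.49 and 0.54 (permutation adjusted p = 0.137 and 0.105). With each library left out in turn, they passed in 11 and 7 of 18 fits. Without intact replicate 1 these were r = 0.44 and 0.41 (permutation adjusted p = 0.226 and 0.243). Slc32a1 and Pvalb passed with no other member. Pairs of Pvalb ran from r = -0.24 with Gad2 to 0.47 with Gata3.

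**Figure D4:**
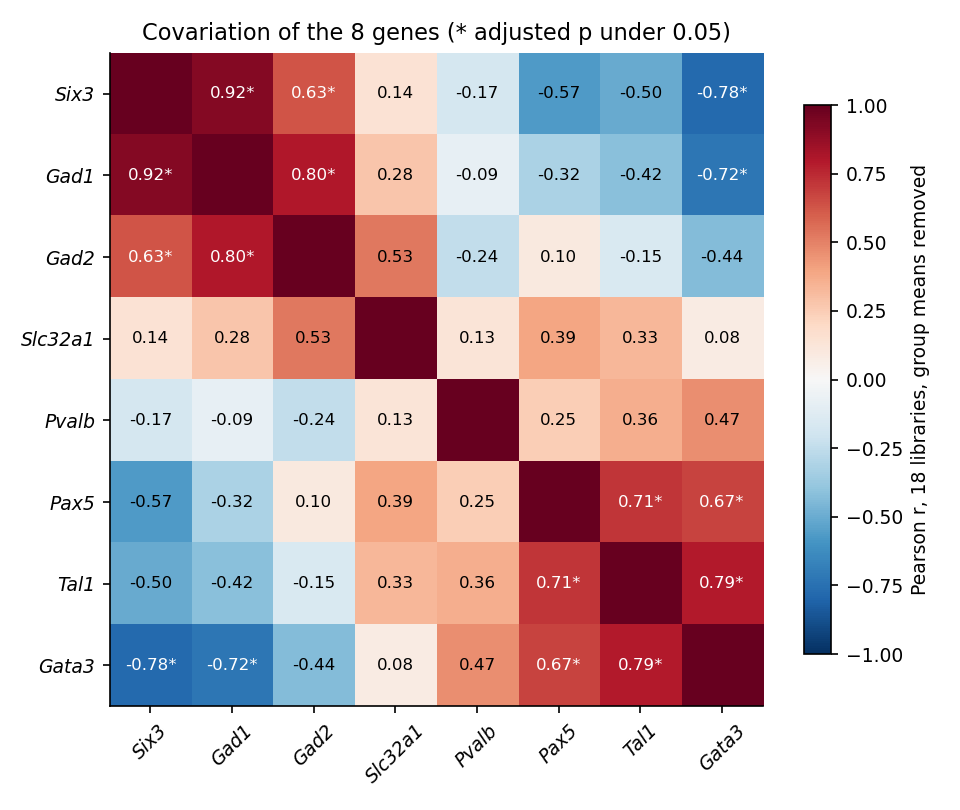
Pearson r between each pair of the 8 genes over 18 libraries after removal of the group means; colour and number give r, and an asterisk marks an adjusted p under 0.05 (permutation). Six3, Gad1 and Gad2 form a positive corner (0.63 to 0.92), Pax5, Tal1 and Gata3 another (0.67 to 0.79), and Gata3 is negative with Six3 (-0.78) and Gad1 (-0.72).

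Among 15245 other genes of sufficient level, those whose pattern over the 18 libraries was most like that of each member were also listed, by Pearson r of log2(value + 1) with the differences between groups left in, as a description with no test. Pvalb was most like Sult4a1 (r = 0.95), Klhdc3 (0.94) and Rundc3a (0.94). Ntn1 (0.91) was among the genes most like Pax5. Gata3 was closest to Vamp1 (0.92), a vesicle fusion protein, Wee1 (0.90) and the heavy neurofilament gene Nefh (0.88), and Tal1 to Gpd1 (0.87). Six3 (Fam81a, 0.90; Cntnap3, 0.88) and Gad1 (Slc35f1, 0.89; Cntnap3, 0.86) shared Cntnap3 among their closest genes. Gad1 and Gad2 (Ptch1, 0.92; Slc35f1, 0.91) shared Slc35f1. Slc32a1 was most like Racgap1 (0.89).

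Other genes of GABA signalling, of the same neurons and of other GABAergic neurons were taken from 5 lists drawn up by function, and the changes given for them are log2 differences. In AAV-SIRT3 against AAV-GFP 0 of their 57 tested genes passed by limma, edgeR or DESeq2, and 6 had an unadjusted p under 0.05 by limma. In AAV-GFP and AAV-SIRT3 against intact, 23 and 24 of the 57 were under 0.05 unadjusted, as were 3707 and 6788 of all 19443 genes (limma). After adjustment 2 and 16 of the 57 passed, beside 1.84% and 21.7% of all genes. GABA breakdown, uptake and precursor supply (8 genes) had 0 calls in AAV-GFP against intact and 2 in AAV-SIRT3 against intact, where 1.84% and 21.7% of all genes were called. Glul, the glutamine synthetase of astrocytes, rose by 0.18 (adjusted p = 0.0167) and Slc6a13, a GABA transporter of the meninges and vessel walls, fell by 0.76 (adjusted p = 0.0212, both limma). The choroid plexus list had 2 of 5 genes lower in that comparison (10.3% of all genes). It summed to 966 to 47020 in intact and 573 to 1950 in AAV-SIRT3 libraries, and its part in the result was not tested.

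Of 18 genes of GABA receptors and their scaffold, 1 was lower in AAV-GFP against intact, and 2 were higher and 4 lower in AAV-SIRT3 against intact, where 11.3% of all genes were called higher and 10.3% lower (1.02% lower in AAV-GFP against intact). Gabra5, an extrasynaptic receptor subunit, fell in both, by 0.26 (adjusted p = 0.0144) and 0.27 (adjusted p = 0.0012, limma), from 2022 normalised reads in intact to 1692 and 1673. In AAV-SIRT3 against intact, Gabrd, the delta subunit, rose by 0.79 (adjusted p = 0.0204) while Gabra2 fell by 0.22 (adjusted p = 0.0208) and Gabrb2 by 0.46 (adjusted p = 0.021, limma). In that same comparison 7 of 9 thalamic markers rose, with a median of 0.65, and Gabrd is abundant in thalamic relay neurons, but its part in the result was not tested.

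Among other regulators of midbrain GABAergic fate, 10 of 11 were tested (Helt was too low), and Foxp1 was the single one called, higher by 0.21 in AAV-SIRT3 against intact (adjusted p = 0.0281, limma). In that comparison 11.3% of all genes were called higher, so 1 of 10 is near that share. Gata2, the partner of Gata3, ran from 211 to 580 normalised reads, with its highest value again in intact replicate 1. Of 11 channels and matrix genes of fast-firing neurons, 0 rose and 3 fell in AAV-SIRT3 against intact, beside 11.3% and 10.3% of all genes. Among those that fell were Kcna1, a potassium channel (-0.55, adjusted p = 0.00594), and the sodium channel gene Scn8a (-0.16, adjusted p = 0.0425, limma). Syt2, a calcium sensor of fast synapses, reached 22751 in intact replicate 1, while the next highest library held 14346. Markers of other GABAergic neurons moved in both directions, with Cck higher (0.70 in AAV-GFP and 0.75 in AAV-SIRT3, both against intact, adjusted p = 0.0214 and 0.00209) and Reln (-0.28) and Nos1 (-0.36) lower in AAV-SIRT3 (adjusted p = 0.00327 and 0.00582, limma). Pan-neuronal genes had 2 higher and 1 lower of 10 in AAV-SIRT3 against intact, beside 11.3% and 10.3% of all genes. In AAV-GFP against intact they had 0 calls by limma and 1 gene at an unadjusted p under 0.05 (limma). There 1 was called by DESeq2, which called 6.23% of the 16042 genes to which it gave an adjusted p.

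**Figure D5:**
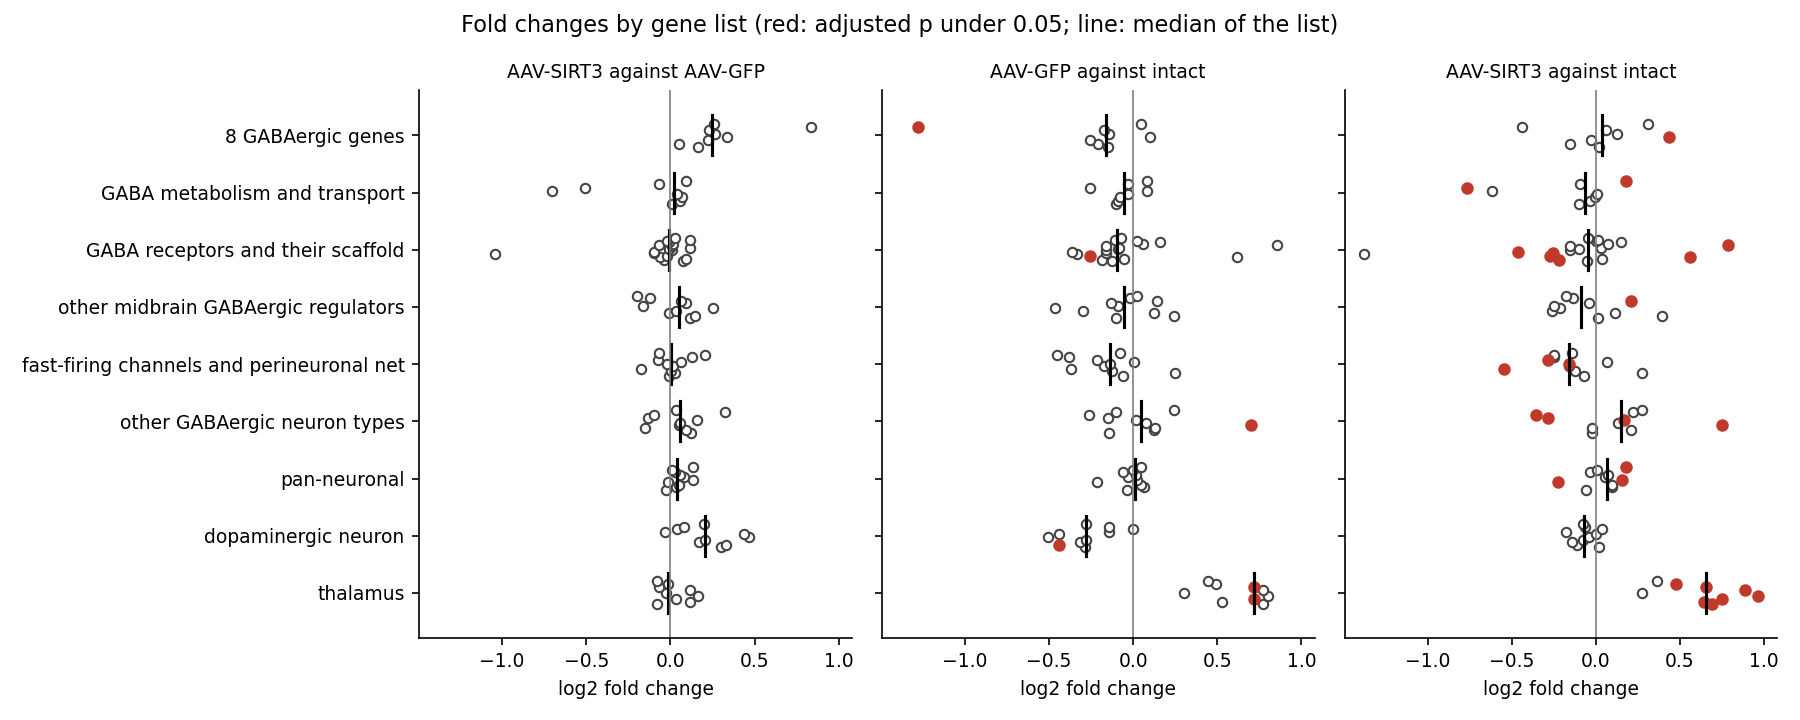
Log2 fold changes (horizontal axes) of the 8 genes and of 8 companion gene lists in the 3 comparisons; each point is a gene, red points have an adjusted p under 0.05 (limma) and the black line is the median of the list. The 8 genes have medians of 0.25, -0.16 and 0.039, 0 points are red in AAV-SIRT3 against AAV-GFP, and the thalamus list lies above 0 against intact, with medians of 0.72 and 0.65.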

How the data were processed

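Poly-A RNA was sequenced in 18 stranded libraries (6 per group, 1 mouse each), per the labels' protocols. The deposited signal per gene is, per the name and values of the authors' table, HTSeq reads divided by DESeq2 size factors, and the submitters' processing notes name HISAT2 2.1.0, DESeq2 1.34.0 and mm10. The annotation and strand setting are not given in the sources used here. Multiplying by the size factor gave whole reads for 100% of values (within 1e-06 reads). For intact and AAV-SIRT3 replicate 4 the factor is near 1, which is weaker proof. The table had 0 columns without a sample.

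Values were tested as log2(value + 1), a scale that understates changes of low genes, for genes of at least 10 in at least 6 libraries, with limma 3.58.1 in R 4.3.3: one model of the 3 groups with a variance trend, 15 degrees of freedom for the residual, and a threshold of 0.05 after Benjamini-Hochberg adjustment over 19443 genes. Each fit was repeated with edgeR 4.0.16 or DESeq2 1.42.0 on recovered reads, no filter on low values or a mean of 50 or more, a pseudocount of 0.5 or 10, quantile normalisation, TMM factors, the 2 groups alone, a replicate block, array weights, robust moderation, thalamus or pan-neuronal score as covariate, length and GC trends removed, and leaving out each library. Recovered reads gave 24, 362 and 4086 calls with edgeR and 311, 999 and 4617 with DESeq2 (AAV-SIRT3 against AAV-GFP, AAV-GFP and AAV-SIRT3 against intact). Lengths and positions are from GENCODE M21, which matched 49093 of 55270 symbols, and promoters from RefSeq (8 of 8 members). The procedure was tested on simulated data. The members and gene lists were chosen with earlier results of these data known. All members are named, and of each list the genes called, up to 4 per comparison by smallest p, except a few genes that are not reported here. Thalamic, pituitary, choroid plexus, B-cell, T-cell, erythroid, endothelial, muscle, striatal, cortical and glial lists served to describe tissue make-up. Their calls in AAV-GFP and AAV-SIRT3 against intact, where limma called 1.84% and 21.7% of all genes, were as follows. T-cell, erythroid, muscle, striatal and cortical lists had 0 by limma, edgeR or DESeq2 (at most 2 genes of a list at an unadjusted p under 0.05 by limma). Limma called 1 and 0 of 10 for dopaminergic neurons, 0 and 5 of 8 for endothelium, and 0 and 1 of 6 for oligodendrocytes. It called 1 and 0 of 5 for astrocytes, and 1 and 2 of 5 for microglia.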

Additional observations from a re-analysis of the deposited data

Results flagged for a closer look

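A single library, intact replicate 1, stood far above the other 5 of its group in 3 of the 8 genes, by a gap that was large against the whole range of the group (Dixon's test at 95%). The test was made on normalised reads. It was not repeated on the log2 scale used for the other tests, where high values stand out less. Gata3 was at 717 normalised reads there, with the next library at 420. Tal1 was at 773 against 553, and Pax5 at 936 against 390. For normally distributed values, chance singles out about 1 in 20 groups, or 1.2 of the 24 examined. The 3 found here come from the same library and are not independent of each other. The same library had the lowest thalamus score (11.1), the highest score for channels of fast-firing neurons (13.0), 22751 normalised reads of Syt2 and 580 of Gata2. Their part in the 3 values was not tested.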

How the results depend on the processing

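Each count and fold change was recomputed under 33 alternatives. In AAV-SIRT3 against AAV-GFP the number of members called rose from 0 to 1 (Pvalb) with DESeq2, array weights or length and GC trends removed, and ran from 0 to 2 when a library was left out. In AAV-GFP against intact it went from 1 to 2 (Slc32a1 and Pax5) with the same 3 alternatives and to 0 with the thalamus score, and from 0 to 2 with a library left out. In AAV-SIRT3 against intact it was 2 with the pan-neuronal score (Pax5 added), and 1 whichever library was left out. The count of correlated pairs, 8, ran from 5 (without intact or AAV-SIRT3 replicate 5) to 11.

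Signs turned for values that did not pass. In AAV-GFP against intact, Gata3 was 0.066 and Six3 -0.32 with the thalamus score, and with a library left out they ran from -0.26 to 0.035 and from -0.088 to 0.17. In AAV-SIRT3 against intact, the thalamus score gave -0.074 for Gad1, 0.081 for Slc32a1, 0.21 for Pax5 and -0.068 for Six3, the pan-neuronal score -0.030 for Gata3 and -0.036 for Tal1, and array weights 0.0071 for Slc32a1. With a library left out Gad1 ran from -0.026 to 0.079 and Slc32a1 from -0.072 to 0.018. The cause was not tested, apart from the covariates named.

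Over all genes, AAV-SIRT3 against AAV-GFP had 22 calls, against 311 with DESeq2, 121 with array weights, 191 with trends removed, 8 with the 2 groups alone and 5 to 862 with a library left out. AAV-GFP against intact had 358, against 999 with DESeq2, 638 with array weights, 164 with no filter, 199 with the 2 groups alone, 34 with the thalamus score and 129 to 685 with a library left out. AAV-SIRT3 against intact had 4214, and 1718 with the thalamus score. Removing length and GC trends changed the share of calls that were higher from 31.8%, 44.7% and 52.3% to 78.5%, 62.5% and 72.9%.

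Same-numbered libraries did not deviate together: the correlation of their deviations from group means had a median of -0.0053 (range -0.095 to 0.18) over 18 pairs, and 1 of 18 libraries correlated best with its own number. With the number as a replicate block, 0, 1 and 1 members were called, as without it, and 13, 372 and 3923 of all genes.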
